A study of Mus musculus with 67 samples.

Results

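A set of 10 genes commonly used as markers of astrocytes was followed through 67 RNA sequencing libraries of mouse brain material that had been prepared to profile microglia. The members are Gfap, Aqp4, Mlc1, Gja1, Slc1a2, Slc1a3, Glul, Sparcl1, Aldoc and Ndrg2, chosen by symbol from the deposited tables of exon counts. They are 10 of 24411 genes listed in the driver and digest experiments and 10 of 24421 in the LPS experiment, and all 10 passed the filter on low counts in each experiment. Their levels were described in input, in IgG control pull-down, in anti-HA pull-down and in sorted cells.

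Astrocytes are the glial cells that take up glutamate and potassium, contact blood vessels with endfeet, and form a network through gap junctions. Gfap encodes their intermediate filament and is the usual marker of reactive astrocytes. Aqp4 is the water channel of the endfeet, Mlc1 a membrane protein enriched there, and Gja1 the main connexin of their gap junctions. Slc1a2 and Slc1a3 are the glutamate transporters, and Glul is glutamine synthetase, which turns the glutamate taken up into glutamine. Sparcl1 encodes a secreted matrix protein that acts on synapses, Aldoc the brain aldolase of glycolysis, and Ndrg2 a cytoplasmic protein abundant in astrocytes. In the RiboTag design, Cre recombinase switches the ribosomal protein Rpl22 to an HA-tagged form, so that ribosomes of the recombined cells and the RNA on them can be pulled down from a tissue homogenate.

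All mice were C57BL/6J, carried the tagged allele as RLP22HA/HA and had a Cre driver on a single Cx3cr1 allele, a locus active in microglia and other mononuclear phagocytes. The driver experiment used CX3CR1CreER/WT mice given tamoxifen (3 mice), the same genotype without tamoxifen (2 mice) and CX3CR1Cre/WT mice without tamoxifen (3 mice), each with an input, an IgG and an anti-HA library. Tamoxifen was given by gavage as 4 doses of 5 mg in mice aged 4 to 6 weeks, and the mice of the digest and LPS experiments were all CX3CR1CreER/WT with tamoxifen. The digest experiment held anti-HA pull-down (3 libraries), IgG (4), cells sorted following enzymatic dissociation, called the digest here (4), and cells sorted with that step left out (4). The LPS experiment gave PBS to 3 mice, and to 4 others 2.5 mg/kg LPS, a bacterial cell wall component that starts inflammation, with tissue taken 3 h after LPS. Each treatment had pull-down, IgG, sorted cells and pull-down from sorted cells. The sort kept GR1 negative, CD45 intermediate, CD11b positive cells. The label microglia stands on every library, also on input and IgG, which hold RNA of the homogenate without a tag-directed selection. By the design text each replicate is another mouse and sorting and pull-down used the same animals, although the CX3CR1CreER/WT groups without tamoxifen held 2. The age at sampling and the time between tamoxifen and sampling are not given here.

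Library totals ran from 186099 to 2084562 counts in the driver experiment, from 685218 to 1843618 in the digest experiment and from 166851 to 3513317 in the LPS experiment. The shallowest were the CX3CR1CreER/WT pull-down without tamoxifen (186099 and 219521 counts) and the pull-down from sorted cells of LPS mice (166851 to 662404). Levels are CPM, read counts relative to a library size adjusted by TMM within each experiment. The error given with a log2 fold change is its standard error, and called means that edgeR's quasi-likelihood test gave an adjusted p below 0.05. With tamoxifen, pull-down exceeded input in 15 of 15 microglia genes, and the list summed to between 68904 and 90344 CPM in those pull-downs against 914 to 1052 CPM in input. A single library stood apart: in CX3CR1Cre/WT pull-down replicate 1 the astrocyte members summed to 7681 CPM, against 2793 and 2771 CPM in replicates 2 and 3, while its microglia genes summed to 2823 CPM against 5929 and 6911 CPM. Its oligodendrocyte genes summed to 6211 CPM, against 1865 and 1996 CPM. Results of that group are given with and without it. In all these bulk libraries, fewer cells of a type and less RNA per cell cannot be told apart.

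The members Gfap, by its response to LPS, and Glul and Slc1a3, by their rise in sorted cells, departed from the rest, so the 250 bases before their transcription starts are shown (RefSeq, GRCm38.p6, strand of the gene, capitals marking a STAT type motif).
Glul, chr1:153899679-153899928, plus strand: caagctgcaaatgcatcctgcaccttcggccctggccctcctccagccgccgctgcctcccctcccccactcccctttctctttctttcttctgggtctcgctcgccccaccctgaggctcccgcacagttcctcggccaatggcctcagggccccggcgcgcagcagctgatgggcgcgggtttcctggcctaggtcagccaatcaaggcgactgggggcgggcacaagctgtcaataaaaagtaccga
Gfap, chr11:102897201-102897450, minus strand: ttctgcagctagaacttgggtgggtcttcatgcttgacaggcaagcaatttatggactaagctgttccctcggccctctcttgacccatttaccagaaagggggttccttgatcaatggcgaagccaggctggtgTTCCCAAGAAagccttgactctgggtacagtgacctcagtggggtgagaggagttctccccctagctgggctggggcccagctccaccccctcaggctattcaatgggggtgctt
Slc1a3, chr15:8710808-8711057, minus strand: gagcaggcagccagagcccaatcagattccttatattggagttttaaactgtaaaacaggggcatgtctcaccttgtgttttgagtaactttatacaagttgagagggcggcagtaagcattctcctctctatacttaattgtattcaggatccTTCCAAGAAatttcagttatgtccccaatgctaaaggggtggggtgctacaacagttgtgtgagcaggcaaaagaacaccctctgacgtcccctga
The promoter table had an entry for 8 of the 10 members. STAT type motifs were searched on both strands as TTC and GAA with 3 bases of any kind between them (the shorter form) or 4 (the longer form), and the 2 forms did not overlap in these windows. The Gfap window held the longer form, 115 to 106 bases before the start, as did 5.85% of 32851 promoters of the same length. The Slc1a3 window held the shorter form, 96 to 88 bases before the start, and so did Aldoc and 7.02% of all promoters. No Glul match was found for either form, for the NF-kB type motif of GGG and CC with 5 bases between them (45.8% of promoters, with Aldoc, Mlc1 and Ndrg2 among the members) or for the PU.1 type motif GAGGAAG (10.6% of promoters, with Gja1).

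With the inducible driver and tamoxifen, pull-down kept most astrocyte markers at a reduced but measurable level. Relative to the mean input, the median member stood at 40.1%, from 2.97% for Aqp4 to 194% for Glul. Such percentages depend on the TMM scaling. As a share of raw counts, the members made up 0.180% to 0.195% of pull-down and 0.632% to 0.663% of input. With total-count scaling the median log2 fold change of all genes was -0.75. The test called 9 of 10 members, 8 lower and 1 higher, where 64.2% of the 11868 genes tested were called in either direction, 35.5% lower and 28.7% higher. The median log2 fold change of the members was -1.32, against -0.28 over all genes tested.

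The members with the lowest share of input in pull-down were Aqp4, Sparcl1 and Gja1. Aqp4 stood at 48.4, 71.5 and 89.7 CPM in input and at 0, 2.97 and 3.26 CPM in pull-down, the last from 0, 2 and 3 reads (-4.99 ± 0.53 on the log2 scale, adjusted p = 1.19e-09). Gja1 stood at 49.1, 47.7 and 44.6 CPM in input and 2.57, 4.46 and 8.70 CPM in pull-down (-3.08 ± 0.50, adjusted p = 5.93e-06). Sparcl1 fell from 1079, 1214 and 1494 CPM to 200.3, 120.4 and 92.4 CPM (-3.20 ± 0.26, adjusted p = 6.69e-13). In each of these genes every input library lay above every pull-down library. They were picked by their low share in pull-down, and the share of all genes without overlap was not computed.

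Ndrg2, Aldoc, both glutamate transporters and Mlc1 kept a larger share. Ndrg2 stood at 1594, 1431 and 1689 CPM in input and 654, 708 and 687 CPM in pull-down, which is 43.5% ± 1.73 (SD, n = 3) of input. Aldoc stood at 2018, 1600.1 and 766 CPM in input and 681, 559 and 644 CPM in pull-down (42.9% ± 4.27 (SD, n = 3)), with the third input library at less than either of the others. Slc1a2 was carried over at 30.4% ± 3.94 (SD, n = 3). The other transporter, Slc1a3, was carried over at 43.4% ± 2.85 (SD, n = 3) and Mlc1 at 37.3% ± 4.31 (SD, n = 3). All 5 were called lower, with log2 fold changes from -1.72 to -1.20. Gfap, at 61.0, 41.7 and 36.6 CPM in input and 25.7, 19.3 and 32.6 CPM in pull-down, did not pass edgeR's test (-0.81 ± 0.55, adjusted p = 0.207). It was called lower without the filter on low counts (adjusted p = 0.0156 in edgeR) and in a fit of these groups alone (adjusted p = 0.0261). In the same comparison 14 of 15 neuron genes and 9 of 12 oligodendrocyte genes were lower, and their part in the members' levels was not tested.

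Glul moved the other way. Its level was 235, 249.7 and 253 CPM in input and 499.6, 505 and 426 CPM in pull-down (0.96 ± 0.23, adjusted p = 0.000437). Scaled by total counts instead of TMM, the difference was 0.48 and was not called, and the median of all genes moved from -0.28 to -0.75. The level in IgG was higher still, 557, 555 and 584 CPM, and pull-down differed from IgG by -0.25 ± 0.22 (adjusted p = 0.338). With total-count scaling that difference was -0.78 and was called lower (adjusted p = 0.00309 in edgeR).

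**Figure D1:**
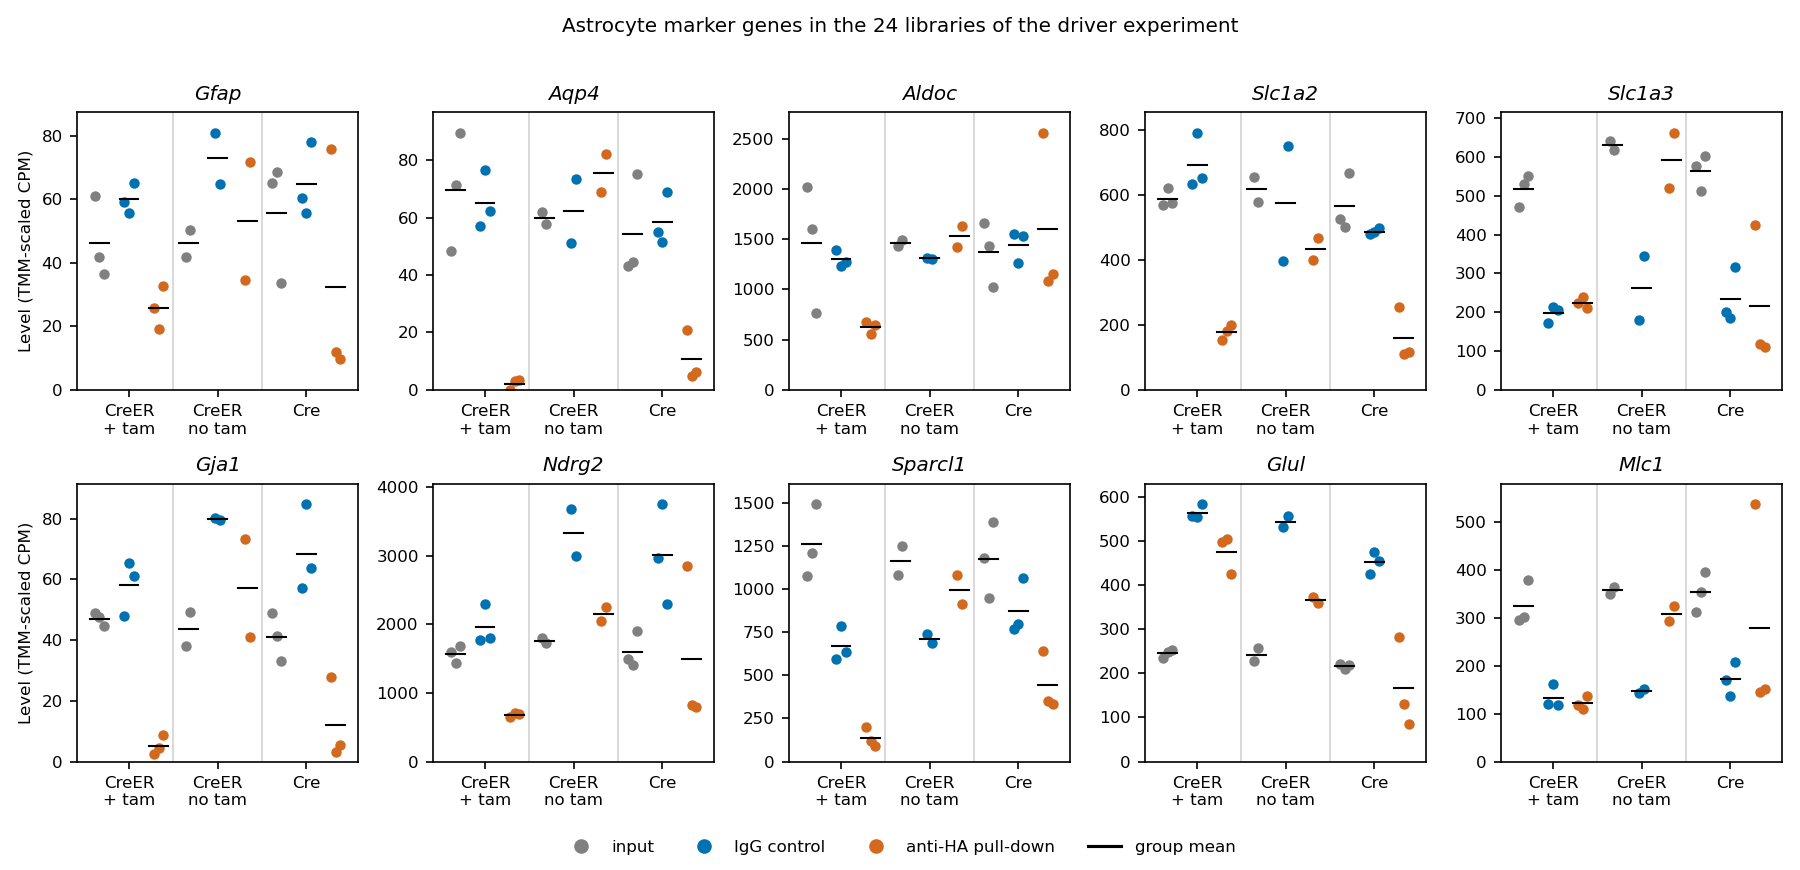
Level of each astrocyte marker gene (TMM-scaled CPM, 1 panel per gene with its own axis from 0) by driver group, in input, IgG and anti-HA pull-down, with 1 point per library. Aqp4 in pull-down of the inducible driver lies at 0 to 3.26 CPM with tamoxifen and at 68.9 and 82.2 CPM without it, and Glul is at 555 to 584 CPM in IgG with tamoxifen against 235 to 253 CPM in input.

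The IgG control carried the astrocyte genes at about the level of input for most members. With the inducible driver and tamoxifen the median member stood at 106% of input in IgG, and 4 of 10 members were called (35% of all genes tested were). Glul was higher in IgG (1.20 ± 0.23), and Slc1a3 (-1.39 ± 0.36), Mlc1 (-1.29 ± 0.33) and Sparcl1 (-0.91 ± 0.23) were lower. In the constitutive driver the median was 107% and 4 of 10 were called (27.4% of all genes), Ndrg2 (0.91 ± 0.32) and Glul (1.06 ± 0.23) higher and Slc1a3 (-1.26 ± 0.37) and Mlc1 (-1.03 ± 0.33) lower. Of these, Glul was called whichever library of the 2 groups was left out, and it was the 1 member called without IgG replicate 1 or 2 or input replicate 3, while 2 were called without input replicate 2. Without tamoxifen it was 98.6% and 3 of 10 were called (25.2% of all genes), Glul (1.17 ± 0.28) higher and Slc1a3 (-1.27 ± 0.45) and Mlc1 (-1.28 ± 0.41) lower, and 1 was called without IgG replicate 1 or either input library.

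Glul in IgG was thus 230%, 208% and 225% of input in the 3 kinds of mice, and every IgG library lay above every input library of its group. Slc1a3 stood at 38.2%, 41.4% and 41.7% and Mlc1 at 40.9%, 48.6% and 41.2%, again with no overlap of IgG and input in any of the 3 kinds of mice. The inducible driver without tamoxifen had only 2 libraries in each of these groups. The share of all genes without overlap was not computed. Among IgG libraries no member was called between the constitutive driver and the inducible driver with tamoxifen in edgeR (0 of 10, with 0.0843% of all genes called). At an unadjusted p under 0.05 there was 1 member, Slc1a2 (-0.51 ± 0.23), and DESeq2 called 0.

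Against IgG, the inducible driver with tamoxifen had 6 of 10 members lower in pull-down and 0 higher, where 66.1% of all genes were called, 35.3% lower and 30.8% higher. These were Aqp4 (-4.89 ± 0.54), Gja1 (-3.39 ± 0.50), Sparcl1 (-2.29 ± 0.25), Slc1a2 (-1.95 ± 0.24), Ndrg2 (-1.52 ± 0.33) and Aldoc (-1.05 ± 0.28). Not called were Gfap (-1.19 ± 0.55), which was called without the filter, with total-count scaling and in a fit of these groups alone (adjusted p from 7.27e-05 to 0.0106 in edgeR), Glul, Slc1a3 (0.18 ± 0.37) and Mlc1 (-0.13 ± 0.35). Relative to input, IgG held Slc1a3 at 38.2% and Mlc1 at 40.9%, but also Sparcl1, which was called lower in pull-down, at 53.2%. For Slc1a3, pull-down stood at 225, 239 and 209.8 CPM and IgG at 173, 214 and 207 CPM.

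**Figure D2:**
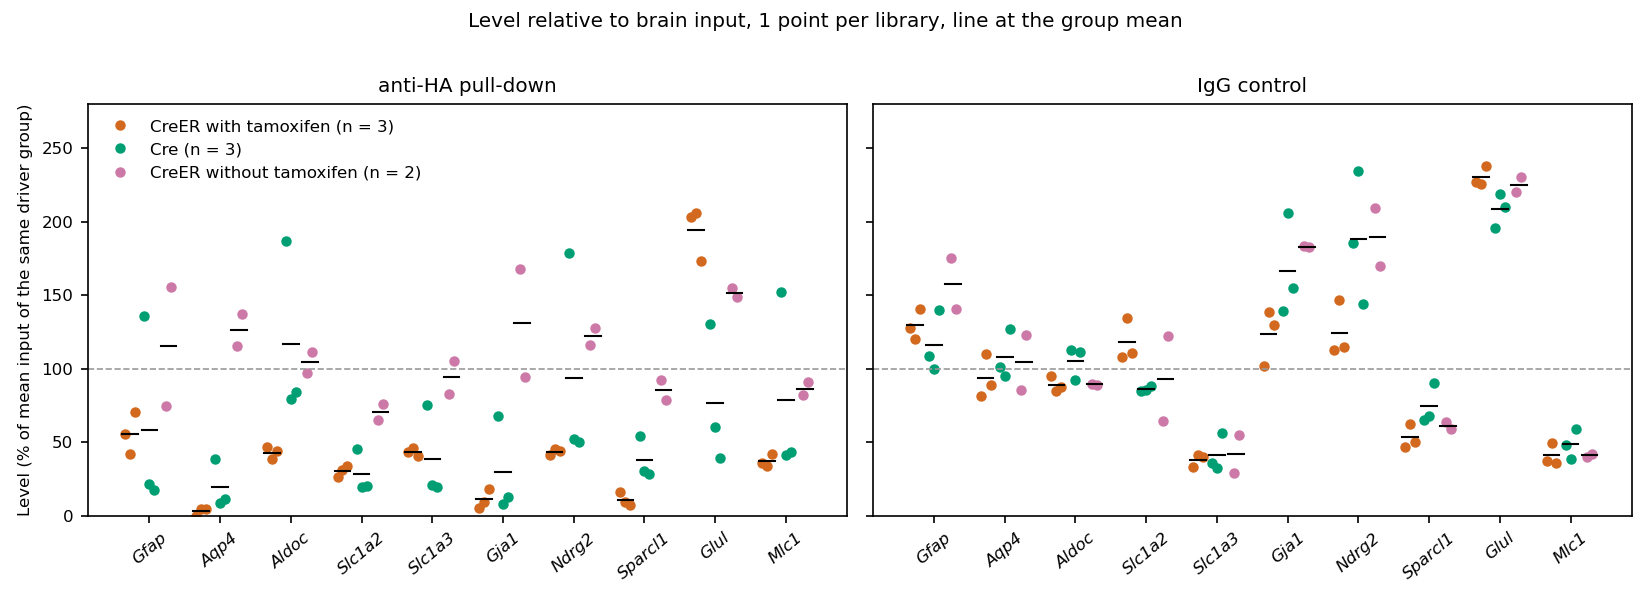
Level of each member as a percentage of the mean input of its driver group (dashed line at 100%), for anti-HA pull-down on the left and IgG on the right, with 1 point per library and a bar at the mean. In pull-down with tamoxifen the means run from 2.97% for Aqp4 to 194% for Glul, and a single point of the constitutive driver lies above its group's others in every gene.

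The constitutive driver CX3CR1Cre/WT gave a more variable carry-over. The median member stood at 48.4% of input, from 19.6% for Aqp4 to 117% for Aldoc. The test called 5 of 10 members lower and 0 higher (34.9% of all genes called, 16.8% lower and 18.1% higher). Those were Aqp4 (-2.26 ± 0.35), Slc1a2 (-1.81 ± 0.24), Gja1 (-1.65 ± 0.38), Sparcl1 (-1.41 ± 0.23) and Slc1a3 (-1.36 ± 0.36). The spread came from replicate 1, whose level exceeded the mean of replicates 2 and 3 in every member, by 1.86-fold for Sparcl1 to 6.96-fold for Gfap, with a median of 3.56-fold. Gfap, for example, stood at 75.8, 11.9 and 9.82 CPM in the pull-downs and 65.2, 68.5 and 33.6 CPM in input.

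Without replicate 1, 9 of the 10 members were called lower than input in the constitutive driver, from -3.28 for Aqp4 and -3.25 for Gja1 to -0.97 for Ndrg2 on the log2 scale. The exception was Aldoc, at -0.29 (adjusted p = 0.366 in edgeR). The share of all genes called without that library is not given here, and the 34.9% above holds with it included. Aldoc stood at 2563, 1088 and 1154 CPM in pull-down and 1665, 1432 and 1021 CPM in input. In replicate 1 the summed neuron genes, at 9332 CPM, lay below the 11892 and 11448 CPM of the others, while its endothelial genes, at 269.6 CPM, lay above their 54.4 and 54.9 CPM. The part of other cells in the results of this library was not tested.

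Against IgG, the constitutive pull-down was lower in 6 of 10 members and higher in 0 (38.8% of all genes called, 18.3% lower and 20.5% higher). Glul was among them (-1.43 ± 0.23, adjusted p = 8.7e-06), with 425, 475 and 456 CPM in IgG and 282, 131 and 85.7 CPM in pull-down. The others were Aqp4 (-2.38 ± 0.37), Gja1 (-2.36 ± 0.40), Slc1a2 (-1.60 ± 0.24), Ndrg2 (-1.01 ± 0.32) and Sparcl1 (-0.98 ± 0.23). Without replicate 1 of the pull-down the count was 8, with Gfap (-2.58) and Slc1a3 (-1.05) added, while Aldoc (-0.37) and Mlc1 (-0.22) remained uncalled. The matching share of all genes is not given here.

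Without tamoxifen, pull-down with the inducible driver stood near input in these genes. The median member stood at 110% of input, from 70.2% for Slc1a2 to 152% for Glul, and edgeR called 0 of 10 members (10.9% of all genes called), with 0 at an unadjusted p under 0.05 and 0 in DESeq2. Aqp4, nearly lost in the pull-down with tamoxifen, stood at 68.9 and 82.2 CPM in pull-down and 62.0 and 57.8 CPM in input. Gja1 stood at 73.2 and 41.1 CPM in pull-down, from 17 and 8 reads, and 38.1 and 49.1 CPM in input. Against IgG, edgeR again called 0 of 10 (8.13% of all genes called), with 2 at an unadjusted p under 0.05, Slc1a3 (1.18 ± 0.47) and Mlc1 (1.07 ± 0.44), and 0 in DESeq2. With 2 libraries of low depth, these intervals were wide. Microglia genes were nevertheless enriched there, with 14 of 15 called higher than input and sums of 13547 and 15588 CPM.

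Compared directly, the members made up a larger share of the inducible driver's pull-down without tamoxifen than of that with it. CPM gives a share of each library and does not measure an amount of RNA. Of 10 members, 8 were higher and 0 lower (34.7% of all genes called, 16.4% higher and 18.3% lower), led by Aqp4 (5.09 ± 0.68), Gja1 (3.39 ± 0.68) and Sparcl1 (2.86 ± 0.28). The other 5 lay between 1.27 for Slc1a2 and 1.65 for Ndrg2. Gfap (0.98 ± 0.82) and Glul (-0.38 ± 0.27) were not called. Without replicate 2 of the pull-down without tamoxifen the count was 5. In the same comparison 14 of 15 neuron genes were higher and 13 of 15 microglia genes were lower.

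The comparison was repeated relative to each group's input. In the interaction term, which compares the pull-down to input ratio without and with tamoxifen, 6 of 10 members were called, all higher without tamoxifen (26.1% of all genes called, 13.5% higher and 12.6% lower). They were Aqp4 (5.32 ± 0.76, adjusted p = 4.82e-06), Gja1 (3.50 ± 0.77, adjusted p = 0.00124), Sparcl1 (2.97 ± 0.38, adjusted p = 1e-06), Ndrg2 (1.49 ± 0.51), Aldoc (1.28 ± 0.45) and Slc1a2 (1.20 ± 0.38). Leaving out 1 library at a time gave between 2 and 5 called members, with 2 when replicate 1 of the pull-down without tamoxifen was left out and 3 when its replicate 2, either input without tamoxifen or input replicate 2 with tamoxifen was.

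Between the drivers, the constitutive pull-down was higher than the inducible pull-down with tamoxifen in 5 members and lower in 1 (55.7% of all genes called). Aqp4 (2.36 ± 0.69), Sparcl1 (1.69 ± 0.25), Aldoc (1.35 ± 0.29), Mlc1 (1.20 ± 0.34) and Ndrg2 (1.13 ± 0.33) were higher, and Glul was lower (-1.51 ± 0.23, adjusted p = 9.91e-07). Without replicate 1 of the constitutive pull-down, Aldoc (0.83) and Sparcl1 (1.32) were still higher and Glul (-2.14) was still lower. Aqp4 (1.33), Ndrg2 (0.25) and Mlc1 (0.29) were then not called. Gfap turned from 0.38 ± 0.57 to -1.26 and Slc1a3 from -0.04 ± 0.37 to -0.99, both called lower without that library.

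The matching interaction term called 4 of 10 members (43.6% of all genes called), and 7 without replicate 2 or 3 of the constitutive pull-down. These were Aqp4 (2.74 ± 0.75, adjusted p = 0.00353), Aldoc (1.44 ± 0.40, adjusted p = 0.0046), Sparcl1 (1.79 ± 0.34, adjusted p = 5.33e-05) and Glul (-1.33 ± 0.32, adjusted p = 0.00102). Without replicate 1 of the constitutive pull-down, Aqp4 was 1.71 and no longer called, while Aldoc (0.92), Sparcl1 (1.42) and Glul (-1.96) were. Gfap went from 0.10 to -1.54 in this step. Neuron genes moved with these drivers as well, 15 of 15 being higher in the constitutive pull-down, and the microglia genes moved against them, 15 of 15 being lower.

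A list of other astrocyte genes, which shares no gene with the members, was followed in the same tests. Like the members, it was chosen with earlier results of these data known. Of 35 tested, 26 were lower and 1 higher in pull-down than in input with tamoxifen (median -1.49). In that comparison 35.5% of all genes were lower and 28.7% higher. With the constitutive driver 13 were lower and 1 higher (-0.38), beside 16.8% and 18.1% of all genes. Without tamoxifen 1 was lower and 1 higher (-0.31), beside 4.46% and 6.44% of all genes. The genes with the smallest p among those lower with tamoxifen were Cpe (-2.93 ± 0.23), a prohormone-processing enzyme, Ttyh1 (-1.81 ± 0.21), a chloride channel family member, and Atp1b2 (-1.65 ± 0.25), a subunit of the sodium pump. The gene that was higher, singled out after its value was seen, was Apoe (1.47 ± 0.26), the apolipoprotein made by astrocytes and microglia. It stood at 5557, 5987 and 4556 CPM in input and 14308, 16764 and 13670.1 CPM in pull-down.

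Across the 24 driver libraries the members did not all follow the same pattern. The correlation of log2 CPM of a member with the mean of the other 9 was 0.928 for Gja1 and 0.921 for Aqp4, but 0.545 for Slc1a3, 0.472 for Mlc1 and 0.143 for Glul. Outside the list, the genes most like the members' mean included Kcnj10, Psat1, Gpm6b, Tril, Plpp3, Dio2 and Ddah1, with Pearson correlations from 0.947 down to 0.925. Kcnj10, a potassium channel of astrocytes, Plpp3, a lipid phosphatase, and Dio2, a deiodinase, stand in the list of other astrocyte genes. Rank correlations of these genes were lower, from 0.575 for Tril to 0.850 for Plpp3, and all libraries share the contrast of preparations.

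In the digest experiment, all 10 members were called lower in pull-down than in IgG. That comparison called 74.5% of the 11529 genes tested, 47.8% lower and 26.7% higher, and its median over all genes was -0.47. The median member stood at 21% of IgG (-2.25 on the log2 scale). Gja1 was carried over least, at 7.47% ± 2.40 (SD, n = 3) of IgG, and Gfap fell from 108, 107, 101 and 98.8 CPM in IgG to 11.4, 13.1 and 10.8 CPM in pull-down (-3.13 ± 0.22, adjusted p = 3.43e-15). Aqp4 (-2.58 ± 0.30), Slc1a2 (-2.41 ± 0.17), Ndrg2 (-2.26 ± 0.15), Sparcl1 (-2.24 ± 0.15) and Aldoc (-2.23 ± 0.14) lay close together. In the same comparison 15 of 15 neuron genes and 12 of 12 oligodendrocyte genes were lower as well.

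Slc1a3 and Glul were the members that pull-down reduced least here. Slc1a3 stood at 175, 229, 165 and 150.5 CPM in IgG and 131, 144 and 98.9 CPM in pull-down (-0.55 ± 0.16, adjusted p = 0.0026). Glul stood at 355, 454, 459.8 and 474 CPM in IgG and 252, 294 and 332 CPM in pull-down (-0.57 ± 0.14, adjusted p = 0.000444). Mlc1 was intermediate, at 37.1% ± 0.862 (SD, n = 3) of IgG (-1.44 ± 0.15).

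Sorting removed 8 of the members almost entirely. Compared with pull-down, cells sorted after the digest had 8 members lower and 2 higher (72.8% of all genes called), and cells sorted without it had the same counts (72.8% of all genes called). The median member stood at 1.15% and 1.24% of pull-down. Of Aqp4 no read was counted in any of the 8 sorted libraries, which is at least 11.3-fold lower than pull-down with the digest and at least 12.2-fold lower without it, set by a floor of 3 reads over each group. Gfap had 1 read over the 8 libraries, in cells sorted after the digest, a ratio of pull-down to sorted of 54.4 with a counting interval of 9.36 to 2190, and was at least 19.6-fold lower without the digest. Gja1 had 0 and 3 reads, at least 6.16-fold lower with the digest and 6.65-fold lower without it (interval 1.94 to 35.3).

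The members that are abundant in pull-down measured the loss best. Aldoc stood at 491, 514 and 509 CPM in pull-down, at 1.07, 4.05, 0.868 and 4.77 CPM in cells sorted after the digest and at 5.12, 1.502, 2.32 and 3.38 CPM in cells sorted without it (-7.44 ± 0.23 and -7.34 ± 0.23). Ndrg2 stood at 580.1, 704 and 766 CPM in pull-down, and at 12.9, 9.46, 9.55 and 5.72 CPM after the digest and 12.8, 15.8, 10.1 and 12.7 CPM without it (-6.18 ± 0.20 and -5.72 ± 0.19). Ndrg2 thus kept 1.37% and 1.88% of its pull-down level, and Sparcl1 kept 1.31% and 2.05%. Slc1a2 was left with 5 and 4 reads over the groups, and Mlc1 with 4 reads after the digest and 1 read without it.

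Glul and Slc1a3 rose on sorting. Glul was at 728, 789.6, 879 and 668 CPM in cells sorted after the digest and at 652, 792, 769 and 599 CPM without it, above every pull-down library (1.39 ± 0.14, adjusted p = 3.79e-11, and 1.26 ± 0.14, adjusted p = 3.56e-10). Slc1a3 was at 151, 186, 189 and 244 CPM and 199, 216, 175 and 211 CPM (0.63 ± 0.16, adjusted p = 0.000659, and 0.68 ± 0.16, adjusted p = 0.00025), also above every pull-down library. In sorted cells these 2 genes moved against the other members, among them Aqp4 and Gfap, which were at or near 0 reads. Which cells supplied the RNA of the 2 genes was not tested, and the share of all genes without overlap was not computed. In the same comparisons 34 of 35 other astrocyte genes were lower, after the digest and without it, beside 41.1% and 40.9% of all genes. S1pr1 was higher after the digest (0.86 ± 0.22, named after its value was seen). Neuron genes fell in 15 of 15 and their sum was 2003 to 2023 CPM in pull-down and 6.67 to 20.3 CPM in sorted cells.

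**Figure D3:**
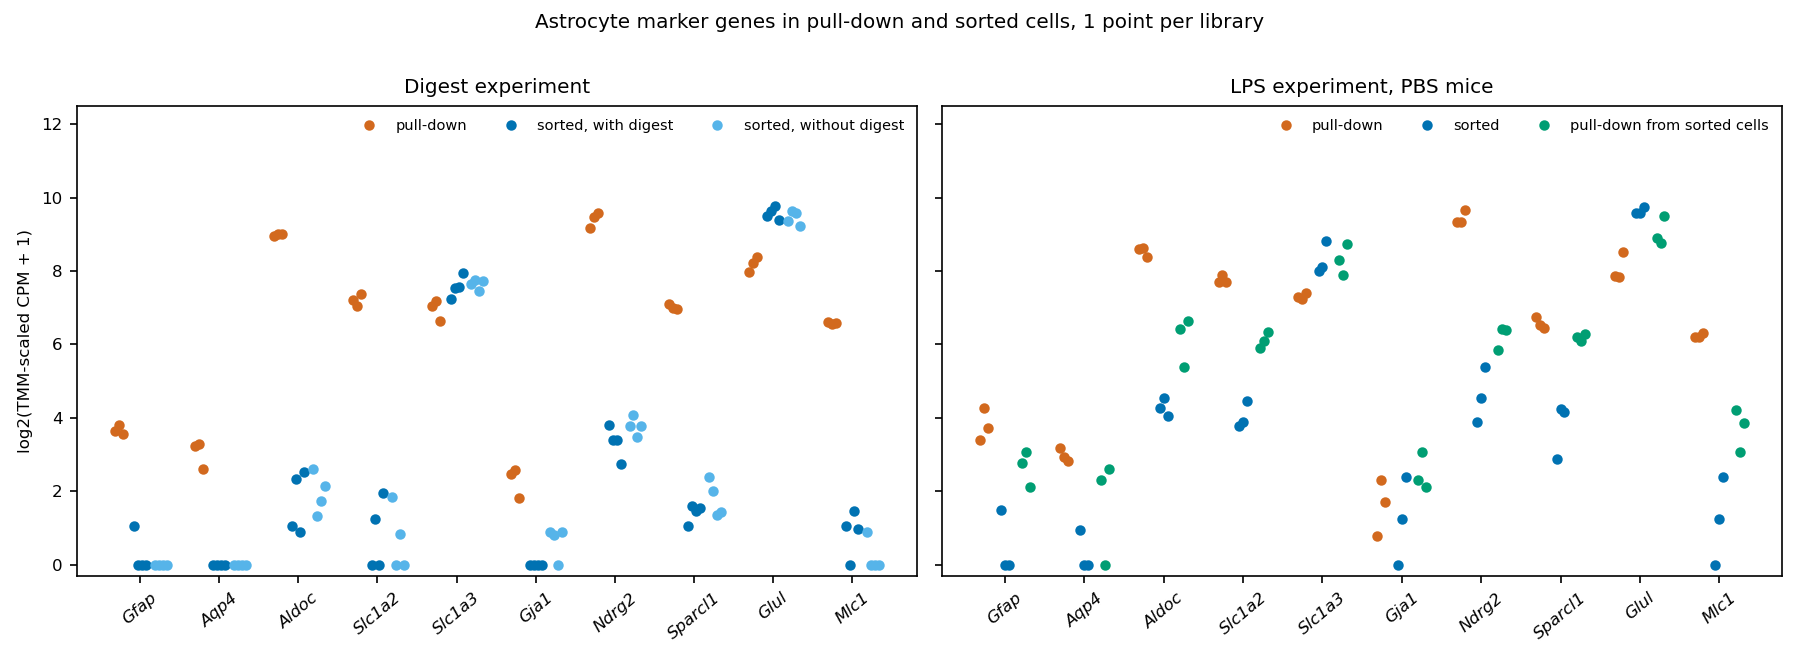
Level of each member as log2(TMM-scaled CPM + 1) in pull-down and sorted cells of the digest experiment (left) and of the PBS mice of the LPS experiment (right, with pull-down from sorted cells), with 1 point per library. Glul and Slc1a3 lie above pull-down in sorted cells, while Aqp4 had 0 reads in all 8 sorted libraries of the digest experiment.

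The enzymatic digest itself made no detectable difference to the members. Between cells sorted with and without it, edgeR called 0 of 10 (0.139% of all genes called), with 0 at an unadjusted p under 0.05 and 0 in DESeq2. Glul differed by 0.12 ± 0.13 and Slc1a3 by -0.05 ± 0.15. For the other 8 the reads were too few to show a moderate difference.

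The LPS experiment repeated the pull-down and sort in another set of mice. In PBS mice, pull-down was lower than IgG in 8 of 10 members and higher in 0 (65% of all genes called, 32% lower and 33% higher), with a median member at 29% of IgG. Gja1 (-3.32 ± 0.49), Aqp4 (-2.58 ± 0.37) and Gfap (-2.24 ± 0.31) led, and Ndrg2 (-0.68 ± 0.33) and Glul (-0.16 ± 0.19) were not called. Under the other scalings, which moved the median of all genes from -0.02 to as low as -0.53, these 2 were called lower too. In LPS mice 9 of 10 were lower and 0 higher (73% of all genes called, 35.3% lower and 37.6% higher), with a median at 33.1%. The exception was Slc1a3 (0.10 ± 0.19), which stood at 215, 207, 232 and 123 CPM in IgG and 253, 231, 195 and 143 CPM in pull-down. Its direction depended on the scaling, since size factors of DESeq2 gave -0.56 and total counts -0.46, beside a median of all genes that moved from 0.02 to -0.64 and -0.54.

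Sorting from these mice also left little of most members. The median member stood at 6.15% of pull-down in PBS mice and 13.5% in LPS mice. In PBS mice 7 members were lower and 2 higher than in pull-down (71.9% of all genes called). Aldoc went from 386, 395 and 329 CPM to 18.3, 22.1 and 15.4 CPM (-4.30 ± 0.31) and Mlc1 from 73.0, 72.3 and 78.7 CPM to 0, 1.38 and 4.20 CPM (-5.44 ± 0.42). Gfap, with 2 reads in sorted cells, was 17.1-fold lower (counting interval 4.53 to 145) and Aqp4, with 1 read, 17.4-fold lower (2.89 to 713). Gja1, at 10 reads in pull-down and 4 in sorted cells, was not called (-0.54 ± 0.91).

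Glul and Slc1a3 were again higher in sorted cells. In PBS mice Glul stood at 760.0, 759 and 849 CPM in sorted cells and 234, 229 and 365 CPM in pull-down (1.52 ± 0.19, adjusted p = 1.79e-10), and Slc1a3 at 255, 277 and 447 CPM and 157, 148 and 169 CPM (1.04 ± 0.23, adjusted p = 8.86e-05). In LPS mice 6 members were lower and 2 higher (76.1% of all genes called), with Slc1a3 at 0.83 ± 0.19 and Glul at 0.61 ± 0.17. Without the filter on low counts those 2 were 0.27 and 0.05 and not called, while the median of all genes moved from -0.26 to -0.76. Aqp4 (-0.64 ± 0.67) and Gja1 (-1.29 ± 0.87) were not called.

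Pull-down from the sorted cells held several astrocyte genes at a higher level than the sorted cells themselves. In PBS mice 5 members were higher in pull-down from sorted cells than in sorted cells and 1 was lower (31.9% of all genes called). Mlc1 (3.01 ± 0.66), Sparcl1 (2.49 ± 0.58), Slc1a2 (2.14 ± 0.47), Aldoc (2.09 ± 0.36) and Ndrg2 (1.60 ± 0.54) were higher and Glul was lower (-0.53 ± 0.19). Of the other cell types' lists, 10 of 15 neuron genes and 7 of 12 oligodendrocyte genes were higher there in PBS mice, and 8 of 15 and 6 of 12 in LPS mice, which was not tested as a part of the members' change. Sparcl1, for example, stood at 6.42, 18.0 and 16.8 CPM in sorted cells and 72.3, 66.6 and 77.6 CPM after the added pull-down. In LPS mice 4 were higher and Glul was lower (31.9% of all genes called), the 4 being Sparcl1 (2.51 ± 0.55), Aldoc (1.92 ± 0.36), Slc1a2 (1.86 ± 0.47) and Ndrg2 (1.43 ± 0.50). With replicate 2 or 4 of the sorted cells, or replicate 2 or 3 of the pull-down from them, left out, 3 members were called in LPS mice.

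Within the pull-down from sorted cells of LPS mice, the libraries split. Sparcl1 stood at 24.1, 154, 191 and 39.4 CPM and Slc1a2 at 22.3, 103, 148 and 28.6 CPM, replicates 2 and 3 being the high ones and also the shallowest, with totals from 166851 counts. Oligodendrocyte genes summed to between 299 and 984 CPM and neuron genes to between 263 and 1175 CPM over the 4 libraries. The part of depth in this split was not tested.

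LPS raised Gfap in the background. In IgG, Gfap stood at 43.2, 101 and 54.4 CPM in PBS mice and 159.5, 131, 153 and 84.3 CPM in LPS mice (1.02 ± 0.23, adjusted p = 0.00798), 1 of 10 members called where 1.15% of all genes were. The groups overlapped, the second PBS library lying above the fourth LPS library. The call was lost in DESeq2 (1.04, adjusted p = 0.0606), in a fit of these groups alone (adjusted p = 0.0993) and without PBS IgG replicate 1 (adjusted p = 0.141) or 3 (adjusted p = 0.0897), while the log2 difference stayed between 0.80 and 1.42 when 1 library was left out. The other 9 members in IgG lay between -0.54 for Sparcl1 and 0.09 for Mlc1 and were not called.

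The same change was seen in pull-down. Gfap stood at 9.50, 18.4 and 12.2 CPM in PBS mice and 49.8, 41.6, 55.0 and 25.9 CPM in LPS mice, without overlap (1.71 ± 0.30, adjusted p = 8.53e-06), and was the only 1 of 10 members called by the main test, where 26.5% of all genes were. Leaving out 1 library at a time gave 1.51 to 2.02, called each time. With total-count scaling, Glul was called as well (-0.46), as the median of all genes moved from -0.03 to -0.18. Aqp4 stood at 8.03, 6.57 and 6.11 CPM in PBS mice and 3.29, 3.73, 4.75 and 4.32 CPM in LPS mice, from 29 and 27 reads. Aqp4 (-0.82 ± 0.48) and Sparcl1 (-0.26 ± 0.33) were lower after LPS, also without overlap, but did not pass the test. For all genes the share without overlap was not computed. The members' summed level was 1913 ± 129 CPM (SD, n = 3) in PBS mice and 1787 ± 42.3 CPM (SD, n = 4) in LPS mice.

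Relative to the mean IgG level of the same treatment, Gfap in pull-down stood at 20.2% ± 6.89 (SD, n = 3) in PBS mice and 32.7% ± 9.62 (SD, n = 4) in LPS mice. The test of that difference, LPS effect in pull-down minus LPS effect in IgG, gave 0.68 ± 0.38 for Gfap (adjusted p = 0.309), and edgeR called 0 of 10 members (8.58% of all genes called), with 1 at an unadjusted p under 0.05, Slc1a3 (0.61 ± 0.30), and 0 in DESeq2. In sorted cells Gfap had 2 reads in PBS mice and 5 in LPS mice, too few for a comparison.

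**Figure D4:**
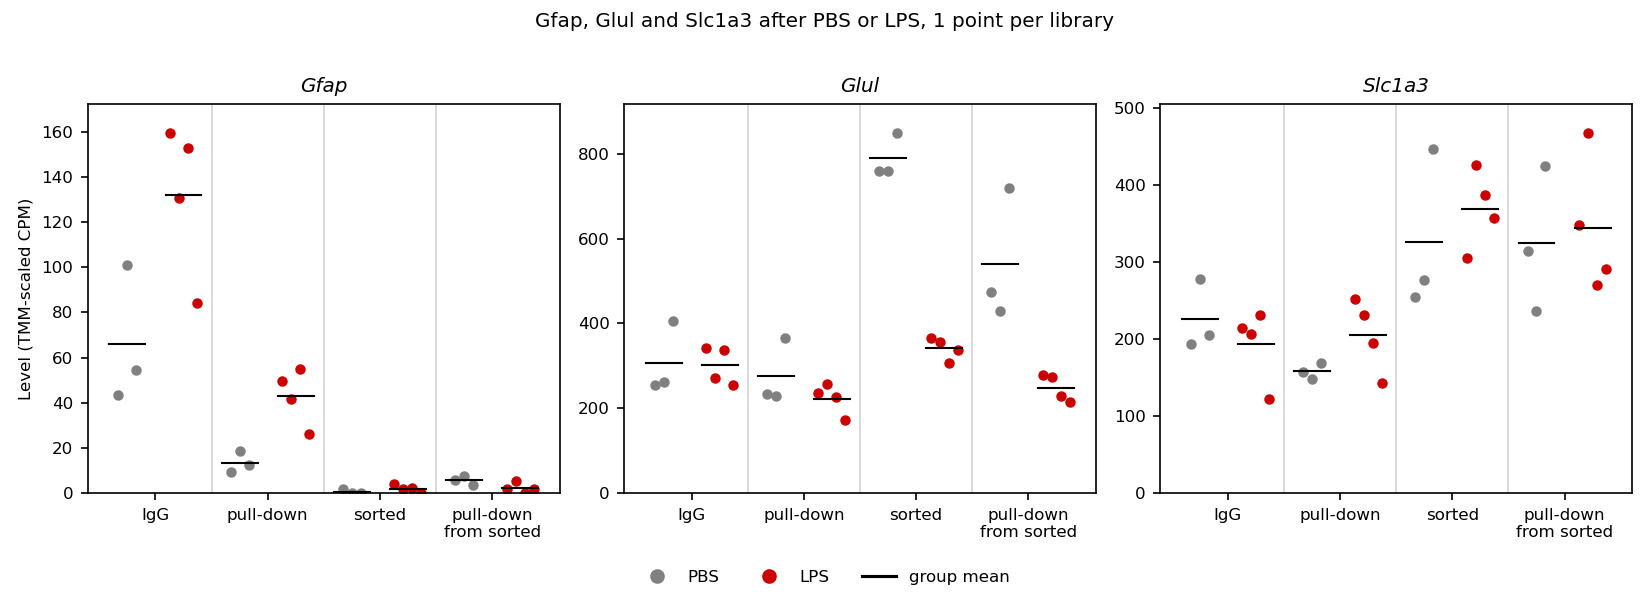
Level of Gfap, Glul and Slc1a3 (TMM-scaled CPM, axes from 0) in IgG, pull-down, sorted cells and pull-down from sorted cells after PBS or LPS, with 1 point per library. Gfap in pull-down lies at 9.50 to 18.4 CPM after PBS and 25.9 to 55.0 CPM after LPS, and Glul in sorted cells at 759 to 849 CPM and 306 to 366 CPM.

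In sorted cells Glul fell after LPS. It stood at 760.0, 759 and 849 CPM in PBS mice and 366, 357, 306 and 337 CPM in LPS mice, without overlap (-1.21 ± 0.18, adjusted p = 5.02e-08), 1 of 10 members called beside 34.5% of all genes. Pull-down from sorted cells gave 475, 429 and 718 CPM and 278, 273, 228 and 215 CPM (-1.14 ± 0.19, adjusted p = 3.44e-06), again 1 of 10 (25.6% of all genes called), or 2 without replicate 3 of LPS mice. In pull-down from the homogenate the levels were 234, 229 and 365 CPM and 236, 257, 225 and 172 CPM, overlapping, and the difference was not called (-0.30 ± 0.18). In IgG it was -0.04 ± 0.18. How many of all genes lay without overlap in these comparisons was not computed.

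The LPS effect on Glul differed between sorted cells and pull-down by -0.91 ± 0.25 on the log2 scale (adjusted p = 0.0269), the 1 of 10 members called for that difference (3.21% of all genes called). This call was narrow. It was lost in DESeq2 (adjusted p = 0.0600) and when any of 7 of the 14 libraries was left out, namely LPS pull-down 1 or 2, LPS sorted 3, PBS pull-down 1 or 2 and PBS sorted 2 or 3. Slc1a3, the other member that rose on sorting, changed little with LPS in sorted cells (0.19 ± 0.21) or in pull-down from them (0.04 ± 0.23), and neither was called.

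**Figure D5:**
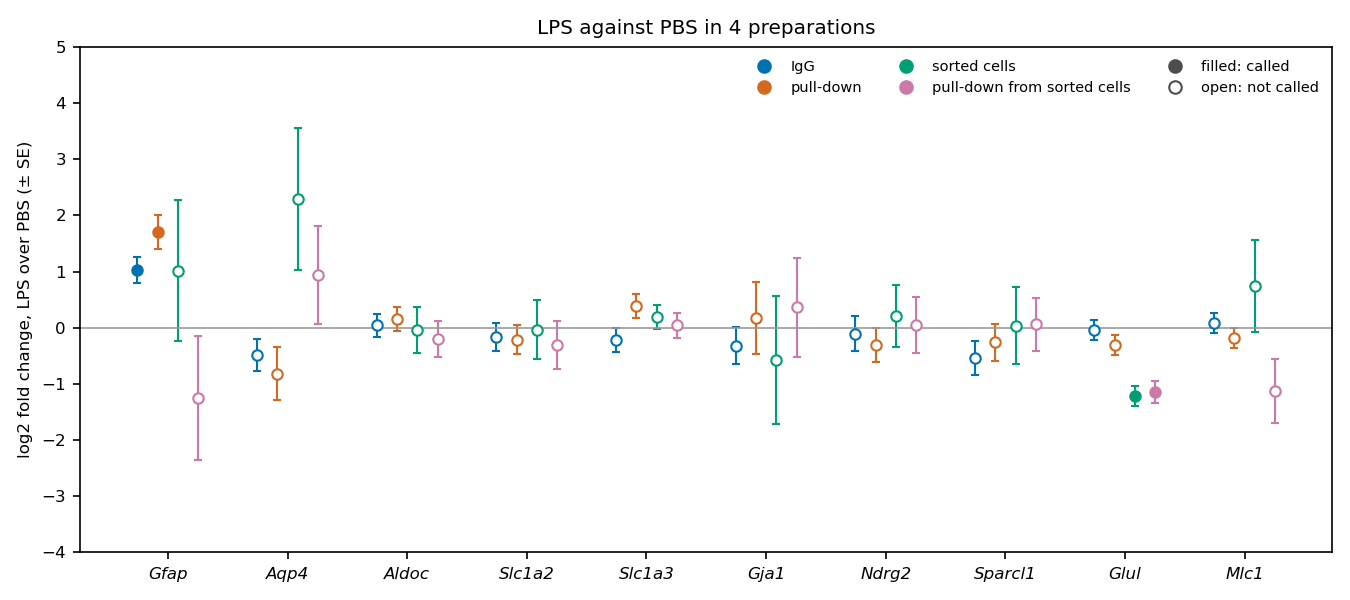
Log2 fold change of LPS over PBS for the 10 members in 4 preparations, with bars of ± 1 standard error from the edgeR fit. Gfap lies at 1.02 in IgG and 1.71 in pull-down, Glul at -1.21 in sorted cells and -1.14 in pull-down from them, and the wide bars of Gfap, Aqp4 and Gja1 in sorted cells stand on few reads.

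Among 35 other astrocyte genes, LPS raised 2 in IgG and lowered 0 (1.15% of all genes called), with a median of -0.07. These were the metallothioneins Mt1 (1.22 ± 0.18) and Mt2 (1.70 ± 0.24), which bind metal ions and are induced in many cells. In pull-down, where 26.5% of all genes were called, 3 rose and 0 fell, Mt1 (2.82 ± 0.19), Mt2 (3.63 ± 0.26) and F3 (1.23 ± 0.36), the gene of tissue factor. Mt2 went from 494, 453 and 868 CPM to 5063, 9676, 5999.7 and 9241 CPM in pull-down. In sorted cells, where 34.5% of all genes were called, 4 rose and 3 fell, with Mt1 (3.35 ± 0.21), Mt2 (5.07 ± 0.32), F3 (4.61 ± 0.52) and Prdx6 (0.84 ± 0.22), a peroxiredoxin, higher and S1pr1 (-2.71 ± 0.36), a receptor of sphingosine phosphate, lower. Mt2 stood there at 31.2, 24.9 and 23.8 CPM in PBS mice and 690.1, 1196, 853 and 909 CPM in LPS mice. In pull-down from sorted cells, where 25.6% of all genes were called, also 4 rose and 3 fell, among them Mt1 (3.12 ± 0.21) and S1pr1 (-1.93 ± 0.43). The LPS effect was larger in pull-down than in IgG for Mt1 (1.59 ± 0.25) and Mt2 (1.93 ± 0.32), and larger in sorted cells than in pull-down for F3 (3.38 ± 0.73) and Mt2 (1.44 ± 0.39) and more negative for S1pr1 (-2.06 ± 0.50).

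Some genes known from reactive astrocytes changed with LPS in each preparation. Of 19 tested, 6 rose and 0 fell in IgG (1.15% of all genes called), 10 rose and 1 fell in pull-down (26.5%), 10 rose and 1 fell in sorted cells (34.5%), and 6 rose and 1 fell in pull-down from sorted cells (25.6%). The other 13, 8, 8 and 12 were not called. The list held 28 genes, and the rest of it did not pass the filter on low counts. A gene can pass that filter through its LPS libraries alone, so the counts of genes that rose are no test of the list. Many of these genes are also induced in microglia and endothelial cells. In IgG the members with the smallest p were Lcn2 (3.54 ± 0.37), an iron-sequestering lipocalin, Gbp2 (2.62 ± 0.39), Cxcl10 (3.50 ± 0.43) and Iigp1 (3.37 ± 0.58), the last 3 being interferon-induced genes, and Steap4, a metalloreductase, with 2 reads in PBS mice and 58 in LPS mice, a ratio of 22.7 (counting interval 6.02 to 192).

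Lcn2 stood at 2.70, 7.36 and 13.2 CPM in IgG of PBS mice and 85.8, 115, 94.1 and 64.3 CPM in IgG of LPS mice. In pull-down it stood at 1.46, 0.657 and 3.06 CPM and 130.1, 191, 196 and 111 CPM (6.46 ± 0.45). Sorted cells of LPS mice held only 3.91, 23.3, 17.9 and 21.4 CPM, lower than pull-down of the same treatment (-3.17 ± 0.31). Steap4 had 357 reads in pull-down of LPS mice and 2 in PBS mice, a ratio of 106 (counting interval 29.2 to 882). Over the 4 sorted libraries of LPS mice 2 reads of Steap4 were counted.

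Other genes of this list were at least as high in sorted cells as in pull-down after LPS. Gbp2 stood at 46.1, 62.1, 53.0 and 52.9 CPM in pull-down and 66.5, 75.0, 101 and 80.8 CPM in sorted cells of LPS mice, against 10.1, 11.1 and 8.41 CPM in sorted cells of PBS mice (3.04 ± 0.31 for LPS in sorted cells). Srgn, the proteoglycan serglycin of immune cell granules, rose in pull-down (3.11 ± 0.27), in sorted cells (3.40 ± 0.27) and in pull-down from them (3.38 ± 0.27). Clcf1, a cytokine, fell in sorted cells (-1.93 ± 0.30) and in pull-down from them (-2.05 ± 0.44). The LPS effect was larger in pull-down than in IgG for Sphk1 (4.16 ± 0.62), Srgn (2.20 ± 0.41) and Lcn2 (2.92 ± 0.78) and smaller for Psmb8 (-1.02 ± 0.29). In sorted cells of LPS mice, as in those of PBS mice, some members had few reads: Gfap 5 reads, Aqp4 7 reads and Gja1 3 reads over 4 libraries.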

How the data were processed

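RNA was sequenced from 67 mouse brain libraries in 3 experiments, each given as its own table of raw read counts per gene over exons, as deposited by the authors. The submitters' processing notes name bcl2fastq, HISAT version 0.1.5, HOMER and the build mm9; annotation and strand setting are not given in the sources used here. Libraries were grouped by their labels, with 2 to 4 per group. Per the labels' protocols, less IgG1 than anti-HA antibody was added. Totals ran from 166851 to 3513317 counts.

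Each experiment was fitted whole with edgeR 4.0.16 in R 4.3.3. The filterByExpr function, at its minimum count of 10, left 11868 genes in the driver, 11529 in the digest and 11444 in the LPS experiment, and counts were scaled by TMM. The quasi-likelihood F test with robust dispersions was used, with Benjamini-Hochberg adjustment over all genes tested and a threshold of 0.05. This fit was first tested on simulated data. The 10 members are named throughout. Beyond them, the 5 called genes of the other and the reactive astrocyte lists with the smallest p per LPS comparison, and up to 3 of the other astrocyte genes in other comparisons, could be named, along with the 8 genes most correlated with the members' mean log2 CPM (prior count 2) over the 24 driver libraries, 1 of these genes being not reported here. The members and lists were chosen with earlier results of these data known. The comparison of IgG between drivers and the interaction terms without minus with tamoxifen and sorted minus pull-down were added after seeing the data.

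Lower bounds use as floor 3 reads summed over a group, and ratios of 1 to 3 reads carry exact 95% intervals; both cover counting error only, and no use of molecular identifiers is recorded in the labels. Alternatives were size factors of DESeq2 1.42.0, total-count scaling, no filter, DESeq2's Wald test, fits of the compared groups alone, a replicate block and leaving out each library. Promoter sequences are from RefSeq (GRCm38.p6), matched by symbol; coordinates of that build were not compared with mm9.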

Additional observations from a re-analysis of the deposited data

Results flagged for a closer look

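In groups of 4 libraries, a lone value far from the other 3 was found in 3 of 52 member and group pairs, about the rate of 1 in 20 that chance gives. Glul stood at 355 CPM in IgG replicate 1 of the digest experiment, below the other libraries. Aldoc stood at 33.2 CPM in replicate 1 of the sorted cells of LPS mice, above the others. Aqp4 stood at 25.7 CPM, from 5 reads, in replicate 2 of the pull-down from sorted cells of LPS mice, above the others.

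In 11 cases the difference between 2 effects passed its own test in edgeR. The pull-down to input ratio, constitutive minus inducible, gave 4 of 10 members, near the 43.6% of all genes called. That ratio without minus with tamoxifen gave 6 of 10 (26.1% of all genes). LPS in sorted cells minus pull-down gave 1 of 10 (3.21%), and LPS in pull-down minus IgG gave 0 of 10 (8.58%). The ratio of pull-down to input was higher in the constitutive driver than in the inducible driver with tamoxifen for Aqp4 (2.74 on the log2 scale), Sparcl1 (1.79) and Aldoc (1.44) and lower for Glul (-1.33). The same ratio was higher without tamoxifen than with it for Aqp4 (5.32), Gja1 (3.50), Sparcl1 (2.97), Ndrg2 (1.49), Aldoc (1.28) and Slc1a2 (1.20). The LPS effect on Glul was more negative in sorted cells than in pull-down (-0.91).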

How the results depend on the processing

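Counts of called members stayed within 1.5 times of the main count under most settings, with the following exceptions. Without the filter on low counts, 2 members were called without tamoxifen in pull-down against IgG (0 as reported), 6 in IgG against input there (3), and 7 in the pull-down to input ratio of the constitutive against the inducible driver (4). In fits of the compared groups alone, 3 were called for constitutive pull-down against input (5 as reported), 3 for constitutive against inducible pull-down (6), 2 for IgG between these drivers (0), 3 for pull-down from sorted cells against sorted cells in LPS mice (5) and 0 for LPS in IgG (1). In such fits without tamoxifen, 1 was called for pull-down against input (0), 2 for pull-down against IgG (0) and 7 for IgG against input (3). Total-count scaling gave 2 for LPS in pull-down (1), and DESeq2 gave 0 for LPS in IgG (1) and 0 for the LPS effect in sorted cells minus pull-down (1). The cause of these shifts was not tested.

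Leaving out 1 library at a time gave 1 to 4 called for constitutive IgG against input, 5 to 9 for constitutive pull-down against input, 4 to 7 for the constitutive minus inducible ratio, 1 to 2 for IgG against input without tamoxifen, 2 to 5 for the ratio without minus with tamoxifen, and 5 to 8 for pull-down without against with tamoxifen. In the LPS experiment it gave 0 to 1 for LPS in IgG, 0 to 1 for sorted cells minus pull-down, 1 to 2 for LPS in pull-down from sorted cells, and 3 to 6 for pull-down from sorted cells against sorted cells in LPS mice. Libraries whose loss moved a count by over 1.5 times included constitutive IgG 1 or 2 and input 2 or 3 (IgG against input), constitutive pull-down 2 or 3 (the ratio between drivers, 7 called), IgG 1 or either input without tamoxifen (IgG against input there) and pull-down from sorted cells 3 of LPS mice (2 called for LPS). Over all member results, 869 of 966 calls were kept when a library was left out, and 25 of 1174 uncalled values became called.

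Gfap in constitutive against inducible pull-down ran from -1.26 to 0.77 and in the ratio to input from -1.54 to 0.49 when a library was left out, the lowest without constitutive pull-down 1. Slc1a3 in pull-down against IgG of LPS mice was 0.10, but -0.56 with size factors of DESeq2, -0.46 with total counts and -0.57 in DESeq2. The members' summed level after LPS was 0.934 of that after PBS in pull-down, and 0.972 without the highest library. With total-count scaling the share of higher genes among all genes called moved from 44.7% to 28.8% with tamoxifen and from 51.8% to 28.1% with the constitutive driver for pull-down against input, and from 46.6% to 30.4% and 52.9% to 31.1% against IgG. It moved from 47.2% to 70.3% for pull-down without against with tamoxifen, 51.8% to 74.7% for that ratio to input, and 80% to 66.7% for IgG between drivers. In the LPS experiment it moved from 50.8% to 35.2% (PBS mice) and 51.6% to 34.4% (LPS mice) for pull-down against IgG, 52.3% to 31.5% and 47.8% to 32.2% for pull-down from sorted cells against sorted cells, 58.6% to 40.6% for LPS in pull-down, and 65.3% to 47.5% for that effect minus IgG. Size factors of DESeq2 gave 32.2%, 31.9%, 45.0% and 45.7% for the PBS, LPS, LPS in pull-down and minus IgG cases.

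The labels' replicate numbers were not taken to pair libraries, since no pair of groups had every correlation of same-numbered deviations over 0.1 (range -0.0852 to 0.143). With the replicate number as a replicate block, 121 of 123 calls were kept. Ndrg2 was lost in constitutive IgG against input (0.88, adjusted p = 0.0503 in edgeR) and in pull-down from sorted cells against sorted cells of LPS mice (1.43, adjusted p = 0.0550), and Gfap was gained in the latter comparison in PBS mice (2.58, adjusted p = 0.0308). The block could not be fitted between treatments or genotypes, which are separate mice. Low read counts of Gfap, Aqp4 and Gja1 in sorted cells limit any statement on their change there.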
